A study of Mus musculus with 12 samples.

Results

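Voltage-gated sodium channels open on depolarization and carry the rising phase of the action potential. A large alpha subunit (Scn1a, Scn2a, Scn3a, Scn8a and Scn9a here) forms the pore and inactivates within the same protein, while small beta subunits (Scn2b, Scn3b and Scn4b here) cross the membrane once, adjust gating and act as adhesion molecules. In central neurons the channels are concentrated at the axon initial segment, where ankyrin-G holds them in place. The 8 genes were chosen by symbol, with measured levels of these same libraries already known, out of 33560 genes with counts, so what follows describes them and gives no independent support for the choice. All 8 passed the filter on low counts, which kept 15443 genes.

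Messenger RNA was measured in 12 libraries of neurons made in culture from mouse embryonic stem cells and harvested at day 21 in vitro. There were 4 groups of 3 libraries: wild-type (WT) neurons in vehicle (water), neurons lacking a microexon of Daam1 (KO) in vehicle, WT neurons in inhibitor and KO neurons in inhibitor. Daam1 encodes a formin that assembles actin filaments. The inhibitor was Y-27632 at 10 µM for 2 h, which blocks ROCK, a kinase acting on actin and myosin. Each genotype was represented by 3 labelled cell lines (lines 1 to 3), each giving 1 vehicle and 1 inhibitor library. The labels do not say whether the lines are separate clones, so p-values measure the spread between these libraries alone.

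Libraries held 23253566 to 35012561 counts. Daam1 itself stood at 133 to 188 CPM in 11 libraries and at 67.9 CPM in the KO inhibitor library of line 3. The deposited counts are per gene and do not resolve a microexon, so they do not check the deletion. Principal component 1 took 74.3% of the variance. KO line 3 in inhibitor had the highest score on it (162.9), then WT line 2 in vehicle (68.08) and WT line 3 in inhibitor (60.35), while the other 9 ran from -73.84 to 1.41. The KO inhibitor library of line 3 bears on most values below, and they are given with and without it.

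The labels call the cells glutamatergic. Slc17a6, a vesicular glutamate transporter, ranged from 51.7 to 424 CPM and Grin2b from 53.1 to 215 CPM, whereas the forebrain markers Slc17a7, Tbr1, Neurod2, Neurod6 and Emx1 never exceeded 2.07 CPM. Of the GABAergic markers, Gad1 and Gad2, which make GABA, ranged from 86.7 to 260 and 70.5 to 227 CPM and the vesicular transporter Slc32a1 from 52.2 to 206 CPM. The forebrain interneuron regulators Dlx1, Dlx2 and Dlx5 never exceeded 1.11 CPM. The microglial markers Cx3cr1, P2ry12 and C1qa were at 3 counts or fewer in all 12 libraries, whereas Csf1r of the same list ran from 0.260 to 12.9 CPM. The muscle markers Myod1 and Myog were also at 3 counts or fewer throughout, whereas Actn2 reached 9.59 CPM and Tnnt2 5.22 CPM. Summed markers of peripheral and autonomic neurons ran from 28.3 to 87.6 CPM and those of pluripotent cells from 0.779 to 62.2 CPM.

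The alpha genes resemble each other closely, which matters for how reads are assigned. Of all 50-base windows of the transcripts annotated in GENCODE M21 (GRCm38), 6.49% of those of Scn3a, 5.76% of Scn2a, 4.04% of Scn9a and 4.03% of Scn1a also occurred in another gene on the same strand. The share was 0.0374% in Scn8a and 0.795% in Scn2b, and none of the windows of Scn3b or Scn4b was shared. How reads matching several genes were counted is not given in the sources used here. The alpha counts from chromosome 2 therefore carry that uncertainty, and those of Scn3b and Scn4b do not at this window length.

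The genes also lie close together. Scn3a (65457118 to 65567627, minus), Scn2a (65620771 to 65767447, plus), Scn1a (66270778 to 66440840, minus) and Scn9a (66480080 to 66634962, minus) follow each other on chromosome 2. Scn8a is on chromosome 15 (100869858 to 101045938, plus). The beta genes are on the plus strand of chromosome 9, Scn3b at 40269217 to 40291618, Scn2b at 45117782 to 45130070 and Scn4b at 45138395 to 45154152. Scn2b and Scn4b are separated by 8324 bases.

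Scn4b is the member whose libraries separated by group. Its protein is known for a short intracellular segment that can block the open pore and give resurgent current. The 42 coding bases of that segment are printed, and they were not compared with the other beta genes. They lie in exon 4 of 5 at chr9:45149352-45149393 (GRCm38, plus strand), and the sequence is the mouse reference of GENCODE M21, 5′ to 3′ in lower case throughout.
Scn4b: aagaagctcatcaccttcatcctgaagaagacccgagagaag

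Levels were compared between genes on the length-scaled cRPKM scale, the authors' read density per transcript length and library depth. Over the 12 libraries the order of mean level was Scn3b (40.6 cRPKM), Scn2b (34.8), Scn2a (26.1), Scn1a, Scn8a (16.3), Scn3a (11.9), Scn4b (3.12) and Scn9a (0.407). Scn3b lay above 88.4% of the 15443 genes tested and Scn9a above 10.5%. Each gene exceeded the next in this order in 12 of 12 libraries. Within WT vehicle, only Scn3a against Scn4b and Scn4b against Scn9a had ranges that did not meet. The ranges of the other neighbours overlapped between lines, although the order held within each library.

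Among the alpha genes, Scn2a, which serves young axons and later their initial segments, stood at 26.91, 23.35 and 31.52 cRPKM in WT vehicle (lines 1 to 3) and 24.92, 25.73 and 33.15 in KO vehicle. In inhibitor it stood at 28.35, 28.44 and 22.71 in WT and 28.61, 31.82 and 7.82 in KO. The KO inhibitor library of line 3 lay far below the other 11, which ran from 22.71 to 33.15, and the groups overlapped.

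Scn1a, best known from inhibitory interneurons, stood at 22.25, 15.09 and 24.93 cRPKM in WT vehicle and 21.95, 24.78 and 27.03 in KO vehicle. In inhibitor it was at 22.40, 22.46 and 19.88 in WT and 21.62, 24.47 and 4.88 in KO. Line 2 was low in WT vehicle and line 3 in KO inhibitor, and no pair of groups separated.

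Scn8a, the main alpha subunit of mature initial segments and nodes of Ranvier, was at 17.61, 14.87 and 18.18 cRPKM in WT vehicle and 15.37, 17.63 and 21.24 in KO vehicle. It was at 16.62, 16.99 and 15.74 in WT inhibitor and 17.98, 19.22 and 4.64 in KO inhibitor. The same library was again the lowest.

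Scn3a, mostly a channel of the embryonic brain, was at 13.14, 10.33 and 15.77 cRPKM in WT vehicle and 12.11, 11.96 and 14.42 in KO vehicle. It was at 13.57, 13.48 and 9.69 in WT inhibitor and 11.83, 12.97 and 3.42 in KO inhibitor. The values in vehicle were interleaved between genotypes.

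Scn9a, known from pain-sensing peripheral neurons, was near the bottom of the measured range, at 0.61, 0.22 and 0.42 cRPKM in WT vehicle, 0.47, 0.36 and 0.38 in KO vehicle, 0.50, 0.55 and 0.32 in WT inhibitor and 0.46, 0.43 and 0.16 in KO inhibitor. These are 43 to 153 counts per library. Scn9a is uncertain, because the antisense gene Gm13629 overlaps it at a mean of 2.96 CPM, against 1.37 to 5.26 CPM for Scn9a, and the use of strand in counting is not stated.

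The mix of alpha genes varied little. Scn2a made up 32.0% to 37.4% of the summed alpha cRPKM, Scn1a 23.3% to 30.8%, Scn8a at most 23.3%, Scn3a 14.2% to 17.4% and Scn9a 0.345% to 0.765% across the 12 libraries. The summed alpha level of the KO inhibitor library of line 3 was 20.9 cRPKM, against 63.9 to 96.2 in the other 11, with shares of 23.3% Scn1a, 37.4% Scn2a, 16.3% Scn3a and 22.2% Scn8a.

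Among the beta genes, Scn3b, which binds alpha subunits without a covalent bond, was at 43.85, 33.28 and 46.09 cRPKM in WT vehicle and 42.01, 45.40 and 45.73 in KO vehicle. It was at 48.50, 44.88 and 33.70 in WT inhibitor and 43.08, 43.83 and 16.97 in KO inhibitor. WT line 2 in vehicle and WT line 3 in inhibitor were low beside their groups.

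Scn2b, which is joined to the alpha subunit by a disulfide bond, was at 33.51, 29.87 and 39.60 cRPKM in WT vehicle and 36.55, 42.47 and 45.39 in KO vehicle. It was at 34.60, 34.51 and 32.96 in WT inhibitor and 39.33, 40.12 and 9.19 in KO inhibitor. WT line 3 lay within the KO range in vehicle. In inhibitor KO lines 1 and 2 lay above all WT lines, and line 3 below them.

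Scn4b, the other disulfide-linked beta subunit, was at 2.47, 2.23 and 2.35 cRPKM in WT vehicle and 4.26, 4.74 and 4.37 in KO vehicle. It was at 2.92, 2.82 and 3.67 in WT inhibitor and 3.59, 3.14 and 0.88 in KO inhibitor. The KO vehicle libraries lay above every other library, and the WT vehicle libraries below every other library except that of KO line 3 in inhibitor. Mean levels in vehicle were 2.35 ± 0.120 cRPKM for WT and 4.46 ± 0.251 for KO. With inhibitor they were 3.14 ± 0.465 for WT and 2.54 ± 1.45 for KO (SD, n = 3 each).

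**Figure D1:**
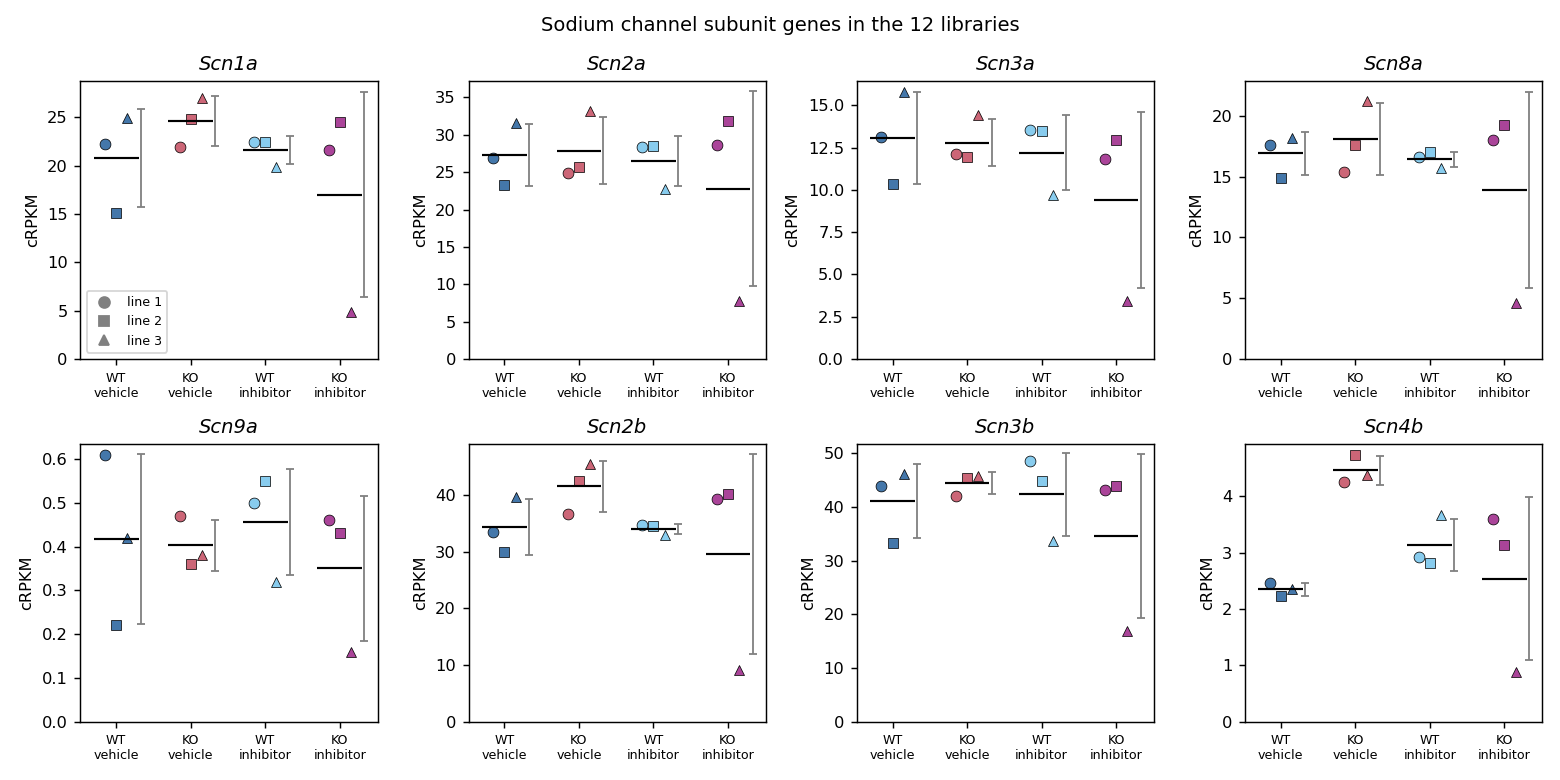
Level of each of the 8 genes in cRPKM (vertical axis, from 0) in the 12 libraries by group. Symbols stand for cell lines 1 to 3, horizontal bars for the group mean and grey bars for ± SD (n = 3). The KO inhibitor library of line 3 is the lowest in every panel, and Scn4b is the gene whose vehicle groups separate.

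To compare 1 gene between libraries, counts were expressed as CPM, that is, scaled by a TMM-adjusted library size. KO against WT in vehicle asks what the loss of the microexon does without drug. Of 15443 genes, 0 (0%) passed an edgeR quasi-likelihood test at a Benjamini-Hochberg adjusted p below 0.05, and 307 had an unadjusted p below 0.05. DESeq2 called 11. None of the 8 sodium channel genes was called by either tool. All 8 log2 differences were above 0, with a median of 0.14 (all genes tested, -0.01) and a range of 0.01 (Scn3a and Scn9a) to 0.96 (Scn4b).

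Scn4b was the only member whose 3 KO libraries all lay above the 3 WT libraries in vehicle, and no member lay wholly below. Over all genes tested, 7.62% lay wholly above and 4.90% wholly below, so 1 of 8 is near the background. In single libraries Scn4b was at 11.9, 11.4 and 11.4 CPM in WT (346, 292 and 348 counts) and 21.6, 23.5 and 22.0 CPM in KO (591, 544 and 561 counts). The lines of each genotype lay close together, and the fitted KO level was 1.94 times that of WT. The log2 difference was 0.96 ± 0.41 (SE), with an unadjusted p of 0.0429 and an edgeR adjusted p of 0.999. It did not pass.

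The spread in that fit comes from all 12 libraries. With the KO inhibitor library of line 3 left out the Scn4b difference was 0.95 with an edgeR adjusted p of 0.0747. Fitted on the vehicle groups alone, which also leaves that library out, the difference was 0.95 with an edgeR adjusted p of 0.533. When the 3 libraries that stand apart were left out (chosen after seeing the data), it was 0.95 with an edgeR adjusted p of 0.0358 and passed, as 1 of 2 genes called out of 15318 (0.0131%). The other was Lrmp, an endoplasmic reticulum protein gene, lower in KO. Leaving out 1 library cannot undo the separation of Scn4b, because the same CPM values were compared, so the 12 such fits do not test it. The count of members wholly above WT in KO vehicle was 4 without WT vehicle line 3 or without KO vehicle line 1. The added genes were Scn1a, Scn2b and Scn3b. With 2 libraries in a group the background is higher, 14.6% and 13.9% of genes in these fits.

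The neighbouring Scn2b was at 146, 138 and 174 CPM in WT vehicle and 168, 191 and 207 CPM in KO vehicle, with a log2 difference of 0.31 ± 0.43 that overlapped between genotypes. The log2 ratio of Scn4b to Scn2b counts in the same library was -3.62, -3.60 and -3.94 in WT vehicle and -2.96, -3.02 and -3.24 in KO vehicle. These ratios did not overlap between genotypes, so Scn4b was higher in KO relative to the gene beside it as well. They use the same Scn4b counts as above and so add no independent support. The share of all genes that separate relative to Scn2b was not computed.

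The other 7 members had smaller differences than Scn4b, from 0.01 to 0.31, each less than its standard error. Without the WT vehicle library of line 2, 5 of the 8 log2 differences were above 0 and 3 below, with a median of 0.05. Scaled to library totals alone, 6 of 8 were above 0.

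Other features of the libraries were compared between genotypes in vehicle. The summed level of 12 pan-neuronal genes was 6210 to 7850 CPM in WT and 8050 to 8630 CPM in KO, and that of 9 GABAergic markers was 609 to 671 and 724 to 799 CPM, neither with overlap, although the GABAergic sum overlapped on the cRPKM scale. Markers of peripheral and autonomic neurons were at 64.5 to 76.9 and 77.5 to 87.6 CPM, but at 20.6 to 22.4 and 21.5 to 23.3 cRPKM, which overlapped. Summed mesenchymal markers (7 genes, all detected) were at 384, 1200 and 103 CPM in WT and 41.9, 25.3 and 105 CPM in KO (lines 1 to 3). The means were 562 CPM in WT and 57.3 CPM in KO, and only WT line 3 lay within the KO range. Astrocyte markers ran from 60.6 to 342 CPM in WT and 75.3 to 156 CPM in KO, with overlap. The part of these features in the sodium channel values was not tested. In bulk RNA, fewer neurons and less RNA per neuron cannot be told apart. Relative to the summed pan-neuronal genes, Scn4b still separated, at log2 ratios of -9.26, -9.09 and -9.43 in WT vehicle and -8.54, -8.48 and -8.62 in KO vehicle. On that scale the difference was 0.71 (edgeR unadjusted p of 0.0222, adjusted p of 0.974), while the median of all genes shifted to -0.25 and that of the members to -0.09. Scn3a and Scn3b were then wholly lower in KO, as were 20.8% of all genes, and 0.965% were wholly higher.

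KO against WT was then compared in inhibitor, where edgeR called 0% of genes (0 of 15443, with 540 at an unadjusted p below 0.05) and DESeq2 called 18, none of them a member. All 8 members had log2 differences below 0, with a median of -0.31 (all genes, -0.00) and a range of -0.40 (Scn9a) to -0.22 (Scn2b). No member separated in either direction, beside 3.51% of genes wholly higher and 7.03% wholly lower in KO. Scn3a had the smallest p, at 95.6, 96.6 and 69.1 CPM in WT and 83.2, 93.0 and 22.8 CPM in KO. Its lines overlapped between genotypes apart from KO line 3, and its log2 difference was -0.39 ± 0.41 (edgeR adjusted p of 0.856).

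These signs rested on 1 library. Without the KO inhibitor library of line 3, 7 of 8 differences were above 0, with a median of 0.10, and Scn3a was at 0.02. Scn4b was at -0.32 with all libraries and at 0.10 without that one. In the remaining KO lines, Scn4b was at 17.6 and 15.7 CPM, against 14.3, 14.1 and 18.2 CPM in WT inhibitor. Scn8a and Scn2b then lay wholly above WT, as did 17.0% of all genes. Without WT line 3 in inhibitor, Scn3a, Scn9a and Scn3b lay wholly below, as did 13.7% of all genes.

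**Figure D2:**
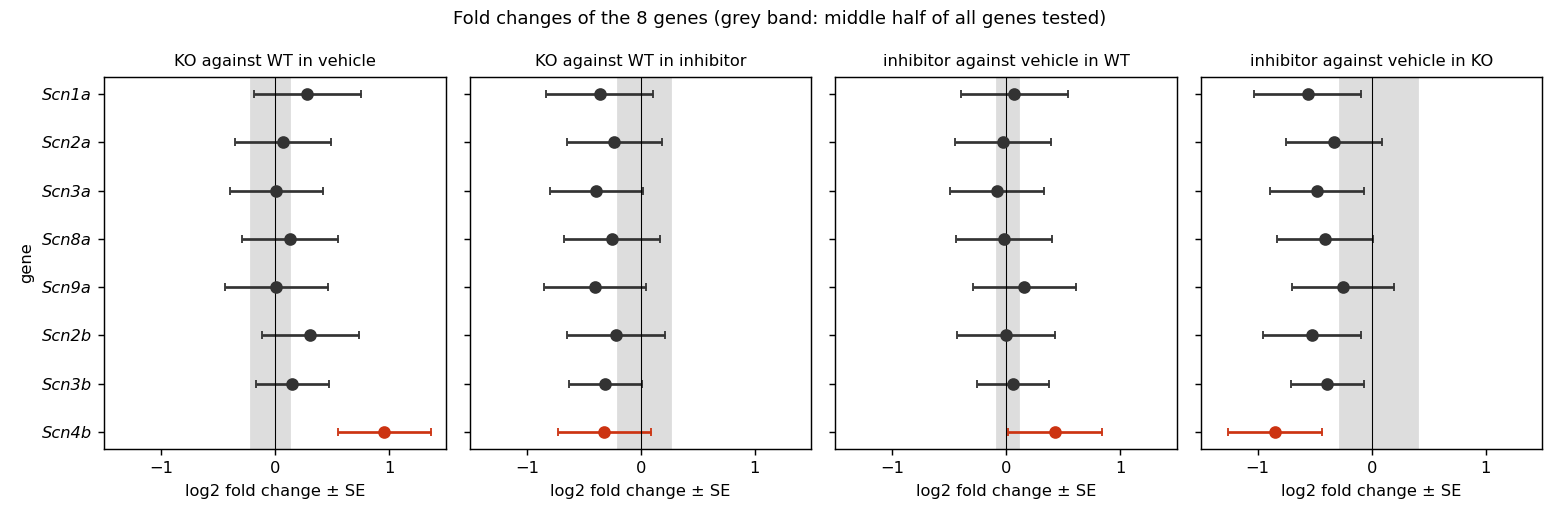
Log2 fold change of each gene (points) with its standard error (bars) in 4 comparisons, Scn4b in red. The grey band holds the middle 50% of all genes tested. In KO vehicle only Scn4b lies clear of the band by more than its standard error, and all 8 genes lie below 0 in both comparisons that use the KO inhibitor libraries.

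Inhibitor was next set against vehicle within a genotype. In WT neurons edgeR called 0% of genes (47 at an unadjusted p below 0.05) and DESeq2 called 0. Of the 8 members 5 were above 0 and 3 below, with a median log2 difference of 0.03 (all genes, 0.01). Scn4b alone separated, higher with inhibitor, beside 3.04% of genes wholly higher and 2.93% wholly lower. It was at 11.9, 11.4 and 11.4 CPM in vehicle and 14.3, 14.1 and 18.2 CPM in inhibitor, so each WT line was higher by 0.27, 0.31 and 0.68 on the log2 scale. The difference was 0.43 ± 0.41 (unadjusted p of 0.318, edgeR adjusted p of 1.00). Line 3 in inhibitor, one of the libraries that stand apart, had the largest shift. Without the 3 libraries that stand apart the difference was 0.26, and scaled to pan-neuronal genes the 2 groups overlapped.

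The other members shifted in both directions among WT lines. Scn2a, for example, moved by 0.10, 0.26 and -0.44 and Scn3b by 0.17, 0.40 and -0.41 in lines 1 to 3. For both, line 2 was higher and line 3 lower with inhibitor. Without the WT vehicle library of line 2, 1 of 8 members was above 0, with a median of -0.12. Without WT vehicle line 3 or without WT inhibitor line 3, 8 of 8 were above 0, with medians of 0.12 and 0.10.

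In KO neurons edgeR called 0% of genes (1088 at an unadjusted p below 0.05) and DESeq2 called 0. All 8 members were below 0, with a median of -0.44 (all genes, -0.02) and a range of -0.85 (Scn4b) to -0.25 (Scn9a). Scn4b was the only member that separated, lower with inhibitor, beside 5.65% of genes wholly lower and 3.19% wholly higher. It was at 21.6, 23.5 and 22.0 CPM in vehicle and 17.6, 15.7 and 4.07 CPM in inhibitor, shifts of -0.30, -0.58 and -2.41 in lines 1 to 3. The difference was -0.85 ± 0.41 (unadjusted p of 0.0662, edgeR adjusted p of 0.474). Lines 1 and 2 of KO were lower by less than line 3. Without KO vehicle line 1, or without KO inhibitor line 2, 4 members lay wholly lower, where 11.1% and 15.8% of all genes did.

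The largest KO shifts were those of line 3. Without its inhibitor library the median of the members was -0.06 and Scn4b was at -0.43 (edgeR adjusted p of 1.00, unadjusted p of 0.00797). Scn4b stayed wholly below vehicle, which leaving out a library cannot undo, and 8.43% of all genes lay wholly lower. The other 7 genes showed shifts of -0.09 to 0.32 in KO lines 1 and 2 and of -2.58 (Scn1a) to -1.27 (Scn9a) in line 3. Scaled to pan-neuronal genes, the median of the members was 0.01 while that of all genes was 0.99, and Scn4b was at -0.39, again without overlap. On that scale 0.389% of all genes lay wholly lower and 10.5% wholly higher.

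An interaction term compared the inhibitor effect of KO with that of WT, and for it edgeR called 0% of genes (185 at an unadjusted p below 0.05) and DESeq2 called 0. All 8 members were negative, with a median of -0.43 (all genes, -0.01). Scn4b was higher with inhibitor in 3 of 3 WT lines and lower in 3 of 3 KO lines, a pattern seen in 1.31% of genes, with 0.557% showing the reverse. Its interaction was -1.28 ± 0.58 (unadjusted p of 0.0523, edgeR adjusted p of 0.808) and did not pass. Without the KO inhibitor library of line 3 it was -0.86 (unadjusted p of 0.000621, edgeR adjusted p of 1.00), and the median of the members was -0.07. Relative to the pan-neuronal genes the pattern by line was lost, since WT line 2 was at -9.09 in vehicle and -9.12 in inhibitor. The vehicle libraries enter both this and the genotype comparison, so the 2 results share data.

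**Figure D3:**
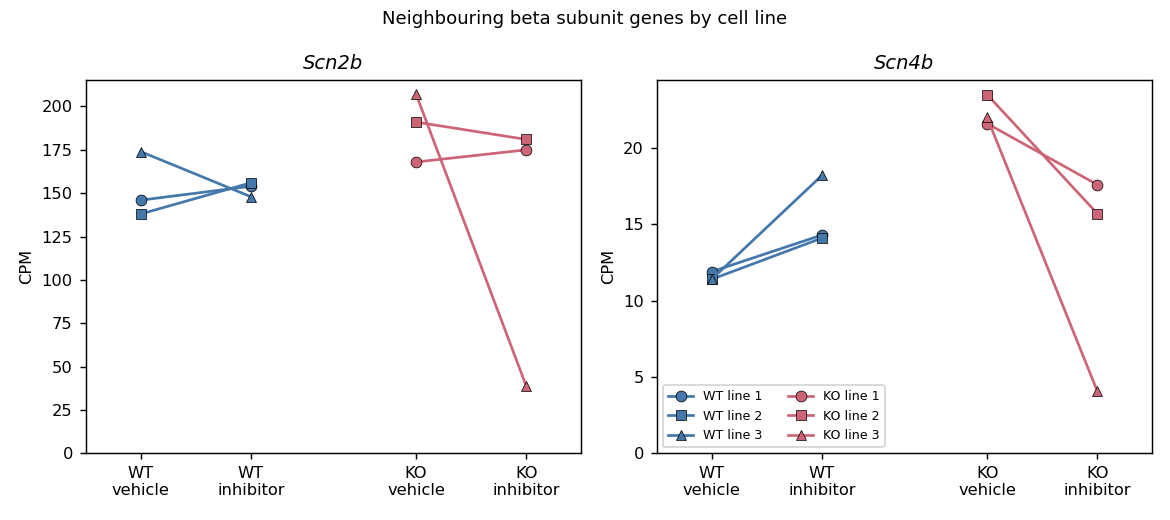
CPM (vertical axis, from 0) of Scn2b and Scn4b in vehicle and inhibitor, with a line joining the 2 libraries of each cell line. Scn4b is higher with inhibitor in all 3 WT lines and lower in all 3 KO lines, whereas Scn2b stays between 138 and 207 CPM except at 38.7 CPM in KO line 3 with inhibitor.

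Members were then set against the pan-neuronal genes library by library. The summed level of the 8 genes was 830 to 1220 CPM in 11 libraries and 269 CPM in the KO inhibitor library of line 3, which is 0.264 times the mean of the others. Summed pan-neuronal genes were at 0.266 times the mean of the others in that library. The log2 ratio of the 8 genes to the pan-neuronal genes stayed between -3.02 and -2.82 in all 12 libraries, so the sum of the channel genes followed neuronal RNA closely in every group.

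Within the low library the members were not equally low. Scn1a was at 0.204 times the mean of the other 11 libraries in CPM, Scn2b at 0.232, Scn4b at 0.246, Scn8a at 0.250, Scn3a at 0.253, Scn2a at 0.264, Scn9a at 0.358 and Scn3b at 0.372. Relative to pan-neuronal genes, Scn3b was at a log2 ratio of -4.96 there, against -5.54 to -5.25 in the others, and Scn1a at -5.94, against -5.79 to -5.44.

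The same library held more RNA of other cell types. Summed astrocyte markers (7 genes) were at 1220 CPM, against 60.6 to 342 in the others, and progenitor markers (7 genes) at 943, against 41.0 to 440. Oligodendrocyte-lineage markers were at 555 CPM, of which Pdgfra made 509, Olig1 24.5 (at most 4.75 in the others) and Olig2 11.9 (at most 1.03). Sox10 was at 0.286 CPM there and at 0 in the other 11, and Mog was at 3 counts or fewer in all 12. Their part in the low sodium channel levels was not tested.

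**Figure D4:**
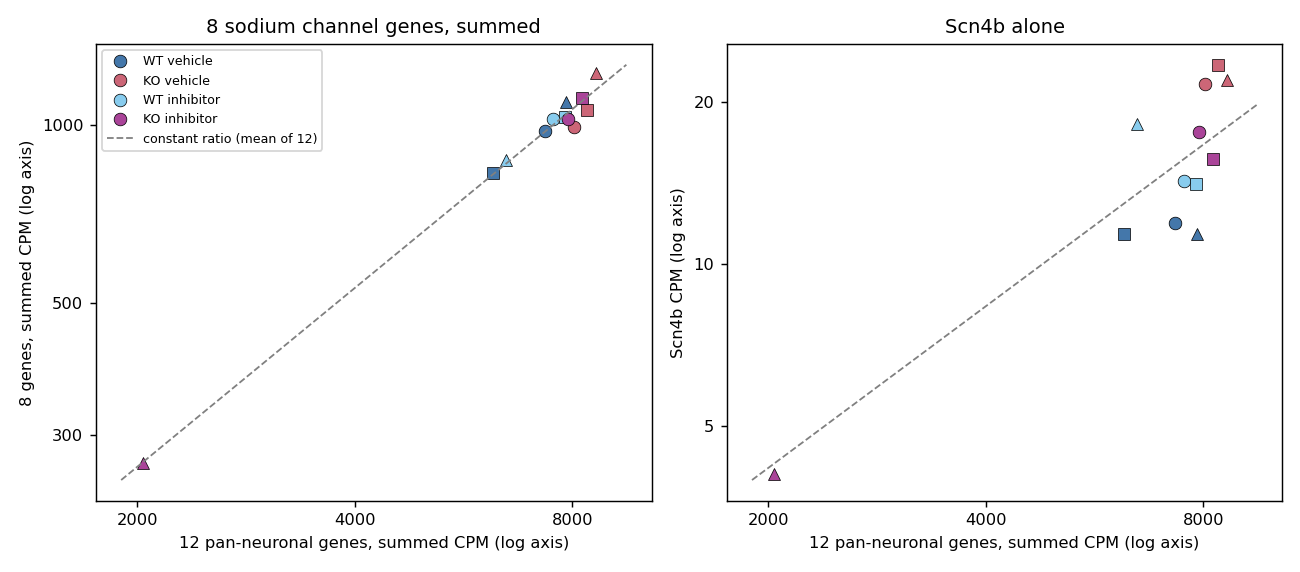
Summed CPM of the 8 genes (left) and CPM of Scn4b (right) against the summed CPM of 12 pan-neuronal genes, both axes logarithmic, 1 point per library, with shapes for lines 1 to 3 and colours for groups. The dashed line is a constant ratio at the geometric mean of the 12 libraries. The summed genes lie along it from 269 to 1220 CPM, whereas the 3 KO vehicle libraries lie above it for Scn4b and the 3 WT vehicle libraries below.

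Further sodium channel genes give the setting. Nalcn, a sodium leak channel, ranged from 5.96 to 21.89 cRPKM and the atypical channel Scn7a from 0.01 to 0.22. Scn4a, the muscle channel, and the sensory neuron channels Scn10a and Scn11a were at 6 counts or fewer in every library. Of these, Nalcn and Scn7a passed the filter on low counts, and neither passed the edgeR test in any comparison. Scn7a, at 3 to 49 counts, separated as Scn4b did in 2 of them. It was wholly higher in KO in vehicle (0.83 ± 0.69), as were 7.62% of genes. With inhibitor in KO it was wholly lower (-0.95 ± 0.69), as were 5.65% of genes.

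Partners of the channels were described from a list of 17 genes, all tested. They included Ank3 (ankyrin-G), Ank2, Sptbn4, Nfasc, Nrcam, Cntn1 and Trim46 of the initial segment and node, the intracellular fibroblast growth factor homologues Fgf11, Fgf12, Fgf13 and Fgf14 that bind the channel tail, the ubiquitin ligase gene Nedd4l, Prrt2, the potassium channel gene Kcnq3, the neuronal gene repressor Rest, and the RNA-binding protein gene Celf4. The list holds 1 further gene that is counted but not named here. None passed in any comparison. In KO vehicle 13 were above 0 and 4 below WT, with a median of 0.08. In inhibitor 2 were above and 15 below, with a median of -0.18. Without the KO inhibitor library of line 3, 14 were above and 3 below (median of 0.13). With inhibitor 7 were above and 10 below in WT (median of -0.02), and 1 above and 16 below in KO (median of -0.36). The KO counts became 10 above and 7 below without that library (median of 0.04), so these signs also rested on it.

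Rest went against the channel genes in the libraries that stood low. It was at 7.60, 13.6 and 5.22 CPM in WT vehicle, 6.26, 3.98 and 4.0 in KO vehicle, 8.74, 8.05 and 13.5 in WT inhibitor and 7.47, 3.53 and 34.9 in KO inhibitor. The 3 highest values were in the 3 libraries that stand apart. Its log2 difference was -0.89 ± 0.72 for KO in vehicle (edgeR adjusted p of 0.999) and 1.69 ± 0.73 for inhibitor in KO (adjusted p of 0.474), where the groups overlapped. Its interaction, the smallest p of the partners there, was 1.49 ± 1.01 (edgeR adjusted p of 0.808) and reversed to -0.15 without the 3 libraries that stand apart. Non-neuronal cells also express Rest, and their part was not tested.

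The smallest p among partners was that of Celf4 for KO in inhibitor, at -0.36 ± 0.27 (edgeR adjusted p of 0.856), and of Nedd4l for inhibitor in WT, at -0.13 ± 0.16 (adjusted p of 1.00). Celf4 was at 583, 585 and 539 CPM in WT inhibitor and 540, 551 and 240 CPM in KO inhibitor. Ank3, which anchors the channels, was at 221, 203 and 214 CPM in WT vehicle and 193, 198 and 242 CPM in KO vehicle, and it overlapped between the genotypes.

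Genes with the most similar pattern over the 12 libraries were listed by Pearson's r of log2 CPM, as a description. The points share depth and the mix of cells, and much of r comes from the KO inhibitor library of line 3. The order below is that over all 12 libraries. Ranked without that library, the most similar gene was a different one for every member except Scn2a. It was Slc25a12 for Scn1a (r of 0.974) and Igsf9b for Scn8a (0.969), for example. Scn1a was most like Kcnc2, a fast potassium channel gene (r of 0.997, and 0.968 without that library), and Tro (0.997 and 0.965). Scn2a was most like Phlpp2 (0.998 and 0.980) and Kif3b (0.997 and 0.967), and Scn8a was most like Klhl29 (0.997 and 0.951) and Sik3 (0.997 and 0.950). Scn3a was most like Plcl1 (0.995 and 0.948) and Csrnp3 (0.994 and 0.937), and Scn9a was most like 2700069I18Rik (0.953 and 0.901) and Kcnmb2 (0.951 and 0.892).

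Among beta genes, Scn2b was most like Dnm1 (0.996 and 0.957) and Tcf25 (0.996 and 0.947), and Scn3b most like Vapb (0.994 and 0.956) and Hdgfl3 (0.993 and 0.964). Scn4b was most like Nefh, the heavy neurofilament gene (0.972 and 0.943), and Vamp1, a synaptic vesicle protein gene (0.966 and 0.909). Ranked without that library, Mamstr came first for Scn4b (0.952, at a mean of 0.510 CPM) and Nefh next. Among the members themselves, r over 12 libraries ran from 0.62 (Scn9a with Scn4b) to 0.99. Over the 11 libraries without KO line 3 in inhibitor, Scn2a with Scn8a was at 0.87 and Scn3a with Scn3b at 0.85, while pairs with Scn4b ran from -0.14 (with Scn3a) to 0.66 (with Scn2b).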

How the data were processed

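The libraries were stranded and poly(A)-selected, per the labels. In each deposited table the authors give unnormalized whole read counts and cRPKM, an RPKM whose correction is not described in the sources used here, for 36902 Ensembl genes, of which 3342 were NA in every table. The genome build was mm10 per the submitters' processing notes. The aligner, annotation and use of strand are not given in the sources used here. The series text speaks of hippocampus, whereas each sample label names cultured neurons, and the sample labels were followed.

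Counts were tested with edgeR 4.0.16 in R 4.3.3 (TMM, filterByExpr by group, robust glmQLFit, 12 libraries in 1 fit with a coefficient per group, BCV of 0.411), with Benjamini-Hochberg adjustment over 15443 genes and a threshold of 0.05. Standard errors are the log2 fold change over the square root of F. Non-overlap means that all CPM values of one group lay above those of the other. DESeq2 1.42.0, limma 3.58.1 on log2(cRPKM + 0.1) and other alternatives were also run. Similarity of pattern used log2 CPM with a prior count of 2.

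The members and gene lists were chosen with earlier results of these data known. All members were named with their values, and a fold change was given singly where groups did not overlap or p was smallest. For the partners it was given for the smallest p in each comparison. Genes outside this rule were named after their values were seen. The fit was tested on simulated counts for KO against WT in vehicle (15443 genes, 50 changed per size). With the spread of these data, 14% of changes of 1 on the log2 scale were called and 68% of changes of 2. Vehicle and inhibitor libraries are paired by cell line in the labels. Their deviations from group means correlated above 0.1 in 2 of 6 lines (r from -0.723 to 0.574). Positions are those of GENCODE M21 (GRCm38). Some sequences and genes of the lists are not reported here.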

Additional observations from a re-analysis of the deposited data

Results flagged for a closer look

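For Scn4b the shifts between vehicle and inhibitor had opposite signs in the 2 genotypes. All 3 WT lines were higher with inhibitor (log2 shifts of 0.27, 0.31 and 0.68) and all 3 KO lines lower (-0.30, -0.58 and -2.41). The interaction was -1.28, with an edgeR adjusted p of 0.808 (0.326 to 1.00 over the alternatives run), so the test of the difference itself did not pass. Scaled to pan-neuronal genes the interaction was -0.80 and the pattern in all lines was lost.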

How the results depend on the processing

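Scn4b kept its direction in KO against WT in vehicle (0.71 to 0.98), with inhibitor against vehicle in each genotype and in the interaction under all alternatives run. In KO against WT with inhibitor it ran from -0.65 to 0.27. Leaving out the 3 libraries that stand apart, an alternative chosen after seeing the data, took the vehicle difference past the threshold. That alternative called 2 genes in vehicle and 1 in inhibitor for KO against WT, and DESeq2 called 11 and 18, where edgeR called 0 in both. Every other alternative called 0 in these comparisons, and all called 0 in the rest. Leaving out 1 library moved Scn3a in KO against WT with inhibitor between -0.72 and 0.02, the latter without KO line 3. Celf4 in that comparison was 0.10 when scaled to pan-neuronal genes, and the Rest interaction, 1.49 with all libraries, was -0.15 without the 3 libraries. The cause was not tested. For inhibitor against vehicle, a replicate block of the 6 cell lines gave Scn4b a KO inhibitor difference of -1.08 (edgeR adjusted p of 0.640) and an interaction with an adjusted p of 0.929. For KO against WT the block was the shared replicate number and gave Scn4b a vehicle difference of 0.96. The block changed no call. Fitting only the groups compared could not be run for the interaction, which uses all 4. With 43 to 153 counts, Scn9a is the least precise member.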
